A study of Mus musculus with 2 samples.

Results

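5 genes of the Ly6 family of surface antigens, Ly6a, Ly6c2, Ly6e, Ly6g and Ly6i, were followed through single-cell RNA-sequencing of mouse bone marrow (BM) cultures. They were taken by name and are 5 of the 26124 genes counted in both libraries. Lin- progenitors from the BM of C57BL/6 mice, 8 to 10 weeks old, were grown with GM-CSF at 20 ng/ml, a growth factor under which BM cells become dendritic cells, macrophages and granulocytes. On day 3 one set of cultures received 300 µM heme carried by albumin (the heme library) and the other received albumin alone (the control library). Each library pooled 5 cultures that hashtag antibodies marked as days 0, 3, 4, 5 and 7, and the cultures of days 0 and 3 precede the exposure. The exposure times that the series' design text gives in hours do not all match these days, which are used here as the hashtags name them. The depletion of lineage-positive cells that started all cultures used, among other antibodies, one to Gr-1, which binds the Ly-6G and Ly-6C proteins, so cells carrying the products of Ly6g and Ly6c2 had been selected against on day 0. Every culture was 1 sample, and no source states how many mice were pooled. There was therefore no replicate check and no test between libraries, and every interval below is a 95% interval for counting error only.

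Ly6 proteins are small, cysteine-rich molecules held on the outer cell membrane by a GPI anchor, and several of them are the antigens by which mouse blood cells are sorted. Ly6g encodes the antigen that defines mature mouse neutrophils, and Ly6c2 the Ly-6C antigen that is high on inflammatory monocytes and also present on developing granulocytes. Ly6a encodes Sca-1, an antigen of haematopoietic stem cells that interferon can also raise in other cells. Ly6e, whose expression is broad, is counted among the interferon-inducible genes, and Ly6i is a close relative of Ly6a and Ly6c2 that has been described on myeloid cells.

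The members are neighbours in a single cluster, and some are so alike in sequence that the counting of their transcripts needs care. In GENCODE M21, on the GRCm38 build that the files use, they lie on chromosome 15 in a stretch of 204 kb, with Ly6e at chr15:74955051-74959905 (plus strand), Ly6i at chr15:74979534-74983430 (minus), Ly6a at chr15:74994877-74998031 (minus), Ly6c2 at chr15:75108158-75111970 (minus) and Ly6g at chr15:75155240-75159126 (plus). No other annotated gene overlaps any of them. Ly6c1, a near copy of Ly6c2 that was not a member, lies between Ly6a and Ly6c2 at chr15:75044018-75048830 (minus). The first 78 coding bases, from the start codon, are printed here to show how close the paralogs are, with capitals at each base that differs from Ly6c2 at the same place.
Ly6c2: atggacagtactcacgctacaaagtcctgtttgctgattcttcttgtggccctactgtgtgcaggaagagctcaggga
Ly6c1: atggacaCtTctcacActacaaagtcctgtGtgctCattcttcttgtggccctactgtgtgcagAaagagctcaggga
Ly6a: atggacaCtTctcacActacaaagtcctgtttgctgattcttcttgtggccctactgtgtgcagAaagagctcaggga
Ly6i: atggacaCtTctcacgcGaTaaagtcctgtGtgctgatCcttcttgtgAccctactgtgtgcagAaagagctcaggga
Ly6g: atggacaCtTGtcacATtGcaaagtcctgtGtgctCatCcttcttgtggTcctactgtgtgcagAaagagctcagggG
Ly6e: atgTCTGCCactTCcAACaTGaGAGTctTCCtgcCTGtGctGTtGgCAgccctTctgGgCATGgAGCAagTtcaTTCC

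In this stretch Ly6a differs from Ly6c2 at 4 bases, Ly6c1 at 6, Ly6i at 8, Ly6g at 12 and Ly6e at 44. Over the whole coding sequence the identity to Ly6c2 was 97.7% for Ly6c1, 82.3% for Ly6a, 82.3% for Ly6i, 79.6% for Ly6g and 61.5% for Ly6e. The libraries were read from the 3′ end of transcripts, where the members are easier to tell apart. Of the 310 windows of 91 bases in the last 400 bases of the longest coding transcript, 34 of Ly6c2 (11.0%) also occurred in Ly6c1, and no window of Ly6a, Ly6e, Ly6g or Ly6i occurred in another gene. The Ly6c2 value is the one that a shared sequence could touch, and Ly6c1 itself was nearly silent, at 0.62 CPM or less in every culture, where CPM is a gene's UMIs scaled to the total.

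Promoter sequence was at hand for Ly6c2 and Ly6g, 2 of the 5 members, as RefSeq windows on GRCm38.p6. For each, the 250 bases before the more upstream annotated start are printed, at chr15:75111972-75112221 on the minus strand for Ly6c2 and at chr15:75155011-75155260 on the plus strand for Ly6g. They are shown because both genes were high in the Camp-gated cells described below. Capitals mark GAGGAAGT, the purine-rich box of PU.1-type factors, which was searched on both strands.
Ly6c2: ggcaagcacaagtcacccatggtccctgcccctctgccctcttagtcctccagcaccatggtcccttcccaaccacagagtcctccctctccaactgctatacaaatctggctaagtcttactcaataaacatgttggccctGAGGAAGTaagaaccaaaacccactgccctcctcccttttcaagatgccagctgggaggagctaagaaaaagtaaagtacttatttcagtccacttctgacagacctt
Ly6g: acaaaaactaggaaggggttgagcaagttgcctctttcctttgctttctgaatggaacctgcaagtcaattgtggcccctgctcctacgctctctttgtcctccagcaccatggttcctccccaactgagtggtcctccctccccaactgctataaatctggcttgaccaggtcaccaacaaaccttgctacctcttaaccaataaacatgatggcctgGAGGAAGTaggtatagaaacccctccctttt

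The box lies at bases -108 to -101 in the Ly6c2 window and at -31 to -24 in the Ly6g window, counted from the start, and 2.44% of 32851 promoter windows of this length hold it. 4 other motifs were searched in the same way and were found in neither window, so none overlaps the box. They were TTCNNTTTC (interferon-type, in 7.13% of all windows), TTCNNNGAA (STAT-type, 7.02%), TTGCGCAA (C/EBP-type, 0.164%) and TGACTCA (AP-1-type, 4.46%). GAGGAAGT also lay at -127 to -120 before the more downstream start of Ly6c1, the near copy that was nearly silent. The window of its more upstream start held none of the motifs. A further GAGGAAGT lay at -8 to -1 before the more downstream start of Ly6c2. A match describes letters in such windows and is not evidence of binding.

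Levels are given as UMIs, the counted RNA molecules, scaled to the total gene UMIs of a culture (CPM, with one CPM being 1 UMI in 1000000). They come from cells that carried a single hashtag, expressed 500 to 5000 genes, and had under 15% mitochondrial and under 30% ribosomal UMIs, which left 9244 of 12050 control cells and 9686 of 14164 heme cells. The cultures summed to between 2249779 and 32835088 UMIs, with a median of 4740 to 15096 UMIs per cell. Day 0 stood apart, since the limits left 354 of 1716 control cells (20.6%) against 1114 of 1877 heme cells (59.3%), and 75.1% of the control day 0 cells were over the ribosomal limit. The upper gene limit also took more of the heme library, 33.9% of its day 3 cells against 8.34% of the control ones. The order of the libraries on day 0 depends on these limits for Ly6e, Ly6g and Ly6i, which were lower in the heme library among the kept cells (for Ly6i within counting error), but not for Ly6c2. Over all single-hashtag cells Ly6g was at 2.19 and 3.52 CPM, Ly6c2 at 331 and 466 CPM, Ly6e at 595 and 767.5 CPM and Ly6i at 1.46 and 2.68 CPM in the control and heme library, each higher in the latter. The libraries shared 112 cell barcodes of 13961 and 17378, and 29 among the cells used. Summed over whole cultures, fewer cells of a type and less RNA per cell cannot be told apart. Over all genes with 20 or more UMIs the median heme to control log2 ratio was between 0.25 and 0.35 on every day, the exposure-free days included, and ratios of the members are best read against it.

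Ly6g, the neutrophil antigen gene, came and went with culture time in both libraries. In the control library it stood at 12.0, 76.0, 195, 81.9 and 7.59 CPM on days 0, 3, 4, 5 and 7. In the heme library it stood at 5.42, 101, 195, 64.5 and 23.5 CPM on the same days. The day 4 ratio was 1.00 (interval 0.962 to 1.04) but 0.735 over all single-hashtag cells, 0.822 with TMM factors and 0.858 as a mean over cells, and the day 7 remainder was 3.09 times higher under heme (2.67 to 3.60). On day 3, before exposure, the ratio was 1.33 (1.26 to 1.40), but it was 0.784 over all single-hashtag cells. On day 5 the heme library was lower, at 0.787 of the control (0.733 to 0.845), and at 0.425 of it over all single-hashtag cells and 0.421 with no upper gene limit. From day 5 to day 7 Ly6g went to 0.0927 of its level in the control library (0.0809 to 0.106) and to 0.364 in the heme library (0.331 to 0.401). The summed level of 8 neutrophil markers (Ltf, Ngp, Lcn2, S100a8, S100a9, Mmp8, Retnlg and Cxcr2) was at 4655 CPM in the control and 29958 CPM in the heme culture of day 7. On day 4 the sum was at 160924 CPM in the control and 184235 CPM under heme, and on day 5 at 86506 and 105042 CPM. On day 5 it was thus higher under heme while Ly6g was lower. Its part in the Ly6g differences was not tested.

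Ly6c2, the Ly-6C gene, was high on days 3 and 4 and lowest on day 7 in both libraries. The control library held 555, 1458, 1429, 809 and 204 CPM on days 0, 3, 4, 5 and 7, and the heme library 595, 1663, 1789, 989 and 492 CPM. On day 7 the heme culture held 2.41 times the control level (2.34 to 2.48). The heme to control ratios of days 3, 4 and 5, at 1.14, 1.25 and 1.22, lay within 0.12 of the all-gene median on the log2 scale, and those of days 3 and 5 went below 1 with scaling by TMM factors. From day 3 to day 7 Ly6c2 went to 0.140 of its level in the control (0.136 to 0.144) and to 0.296 in the heme library (0.290 to 0.301).

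Ly6a, the Sca-1 gene, reached a far higher level in the heme library than in the control after day 3. Control cultures stood at 112, 31.4, 15.3, 35.2 and 43.8 CPM on days 0, 3, 4, 5 and 7. Heme cultures stood at 30.9, 22.3, 33.8, 82.1 and 290.1 CPM. Before the exposure the heme library was the lower one, at 0.708 of the control on day 3 (0.642 to 0.782). On that day the heme library was at 0.943 of the control over all single-hashtag cells, and at 0.957 with no upper gene limit. Afterwards it was higher by 2.21 times on day 4 (1.96 to 2.49), 2.33 times on day 5 (2.15 to 2.53) and 6.62 times on day 7 (6.25 to 7.00). On day 5 it was higher by 3.62 times over all single-hashtag cells and by 3.58 times with no upper gene limit. Divided by the day 3 ratio of the kept cells, 0.708, the day 7 difference was 9.34-fold. This value depends on the cells kept on day 3. Within the heme library Ly6a was 13.03 times higher on day 7 than on day 3 (12.1 to 14.1), against 1.40 times in the control library (1.28 to 1.52). The day 0 values depend on the cells kept: over all single-hashtag cells they were 19.3 CPM in the control and 16.8 CPM in the heme library.

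Ly6e, the broadly expressed member, varied least. Its control levels were 1103, 492, 465, 698 and 793 CPM on days 0, 3, 4, 5 and 7, and its heme levels 1027, 507, 423, 645 and 678 CPM. The highest culture was 2.61 times the lowest, against 8.77 times for Ly6c2, 18.9 times for Ly6a, 24.7 times for Ly6i and 36.0 times for Ly6g. On days 4, 5 and 7 the heme cultures lay at 0.909, 0.923 and 0.855 of the control (0.839 to 0.872 on day 7), below the shift of all genes, though the day 4 ratio was 1.02 over all single-hashtag cells and the day 5 ratio 1.02 as a mean over cells.

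Ly6i crossed over. It stood at 4.00, 13.1, 33.2, 58.7 and 65.9 CPM in the control library and at 3.65, 29.2, 63.1, 90.2 and 36.2 CPM in the heme library. The heme cultures were higher by 2.22 times on day 3 (1.97 to 2.51), by 1.90 times on day 4 (1.75 to 2.07) and by 1.54 times on day 5 (1.43 to 1.65). On day 7 they were lower, at 0.550 of the control (0.509 to 0.593). The day 5 ratio was 1.12 over all single-hashtag cells and 1.11 with no upper gene limit. Among the kept cells the largest of the higher values was that of day 3, before heme was added. Divided by it, the ratios of days 4, 5 and 7 were 0.856, 0.692 and 0.247. Over all single-hashtag cells the day 4 ratio was the larger one, at 1.81 against 1.74 on day 3. With no upper gene limit these were 1.81 and 1.75. From day 5 to day 7 Ly6i went to 1.12 times its level in the control library (1.05 to 1.20) and to 0.401 in the heme library (0.371 to 0.434).

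**Figure D1:**
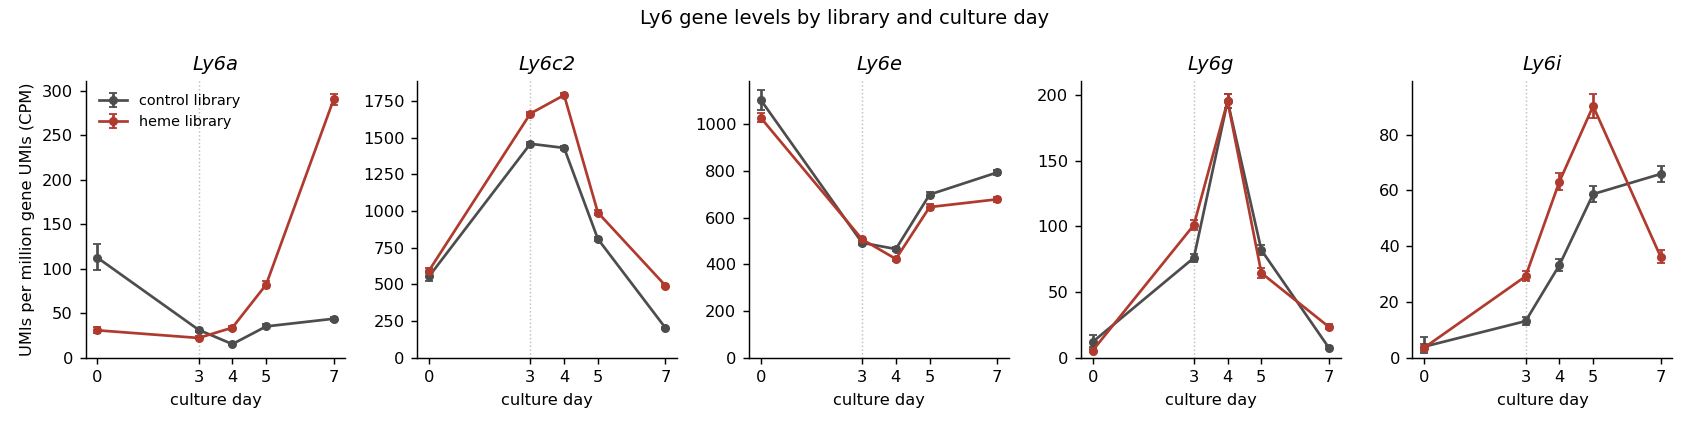
Level of each gene (y axis, CPM) against culture day (x axis) in the control (grey) and heme (red) library, with 1 culture per point, bars for the 95% counting interval and a dotted line at the day of heme or albumin addition. Ly6a climbs to 290.1 CPM in the heme library alone, Ly6g peaks at 195 CPM in both on day 4, and Ly6i is above the control from day 3 to day 5 and below it on day 7.

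Ordered by level over the 10 cultures, most neighbours were separated by more than counting error. Intervals of neighbours overlapped in 1 of 9 pairs for Ly6e, 2 for Ly6c2, 3 for Ly6a, 4 for Ly6g and 5 for Ly6i. For Ly6a the overlapping run was control day 5, heme day 4, control day 3 and heme day 0, all between 30.9 and 35.2 CPM. For Ly6g the day 4 cultures could not be ordered, nor could control day 5 and control day 3.

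The members were also set against all genes. A ratio of 2 or more was called higher and one of 0.5 or less lower, without a test. On day 3, before exposure, 8.04% of 12607 genes were higher and 0.524% lower, and of the 5 members Ly6i was higher and none was lower. Ly6i was under 2-fold on day 3 with TMM factors, at 1.77, and with DESeq2 size factors, at 1.85. Over all single-hashtag cells it was at 1.74, and with no upper gene limit at 1.75. On day 4, with 9.65% of genes higher and 2.92% lower, Ly6a was the member past the line and none was lower. On day 5, with 9.12% higher and 3.75% lower, this was again Ly6a alone. With TMM factors Ly6a was under 2-fold on both days, at 1.81 and 1.91, and with DESeq2 size factors at 1.88 and 1.98. On day 7, when 14.3% of 12838 genes were higher and 7.24% lower, Ly6a, Ly6c2 and Ly6g were past 2-fold higher and none of the 5 was past 2-fold lower, though Ly6i passed that line with TMM factors, at 0.462. The count of 3 higher was 2 as a mean over cells, with Ly6g at 1.66, and 2 with no upper gene limit, with Ly6c2 at 1.99. The member median log2 ratio was 0.19, 0.32, 0.29 and 1.27 on days 3, 4, 5 and 7, beside all-gene medians of 0.31, 0.28, 0.25 and 0.27. Relative to the all-gene median of day 7, Ly6a was at 2.45, Ly6g at 1.36, Ly6c2 at 1.00, Ly6e at -0.50 and Ly6i at -1.13 on the log2 scale. On that day 98.2% of genes had a ratio at or below that of Ly6a, and 8.78% one at or below that of Ly6i.

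**Figure D2:**
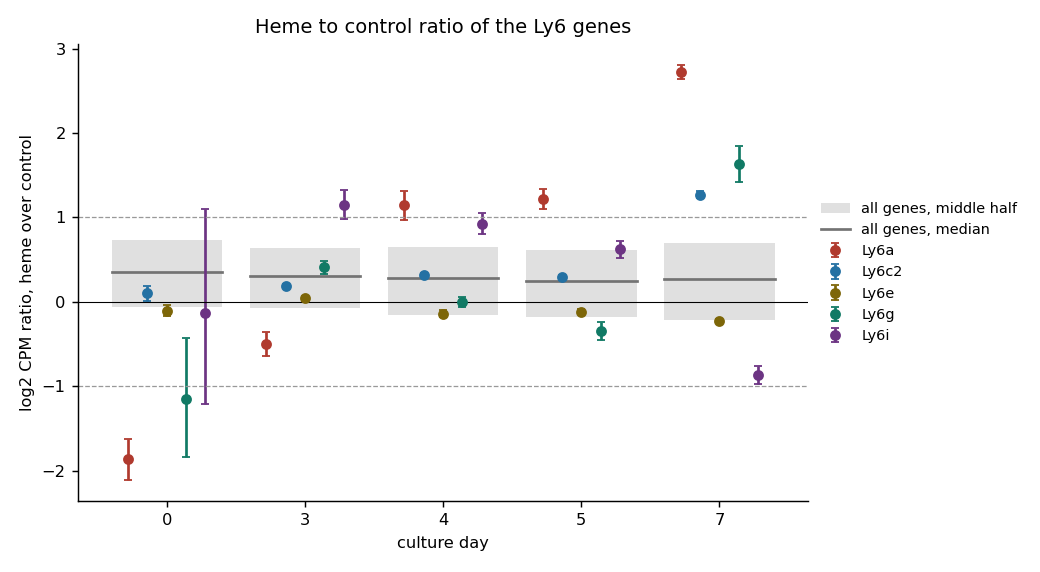
Heme to control CPM ratio of each gene on a log2 scale (y axis) by culture day (x axis), with bars for the 95% counting interval, dashed lines at 2-fold, and in grey the median and the range from the lower to the upper quartile of all genes with 20 or more UMIs. Ly6a passes 2-fold on days 4, 5 and 7, whereas Ly6e lies between 0.855 and 1.03 times the control on each day.

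The cells that carried these transcripts were then picked out by single genes. Cells with Camp, the cathelicidin gene of developing neutrophils, at 0.5% or more of their UMIs formed the Camp gate, and cells with 5 or more UMIs of Vcan (versican, high in monocytes), 5 or more of Marco (a macrophage scavenger receptor) or 10 or more of Arg1 (arginase 1) formed the other gates. A cell belonged to a gate if it met that criterion alone, and a gate under 50 cells in a culture gave no value. A further gate took cells with S100a8 at 1% or more of UMIs and Camp under 0.1%. The Camp gate held 595, 934, 433 and 12 control cells and 867, 1222, 151 and 113 heme cells on days 3, 4, 5 and 7. The Vcan gate held 342, 143, 100 and 32 control cells and 369, 155, 128 and 156 heme cells. Marco-gated cells numbered 540 in the heme culture of day 7 and 8 in its control, and Arg1-gated cells 209 in the control culture of day 7 and 0 in its heme counterpart, so that neither gate can be compared with itself between libraries. Where Marco-gated heme cells are set against Arg1-gated control cells below, gate and library both differ and cannot be told apart. Gates set by UMI number take deep cells, with a median of 17812 to 22159.5 UMIs in the Vcan gate on days 3 to 7 against 6388 to 12097 in the Camp gate.

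Checked against marker lists, the gates were as follows. The 8 neutrophil markers summed to between 254396 and 331218 CPM in Camp-gated cells and to between 103858 and 160194 CPM in S100a8-gated cells, which S100a8 itself selects. They summed to between 2344 and 15426 CPM in Vcan-gated, 3309 CPM in Marco-gated and 2249 CPM in Arg1-gated cells. The 6 monocyte markers (Ccr2, F13a1, Csf1r, Ms4a6c, Klf4 and Plac8) summed to between 657 and 1100.0 CPM in the Vcan gate, but to 1320.4 CPM in Arg1-gated cells and to between 373 and 1874 CPM in S100a8-gated cells, the highest being those of control day 3. The 6 macrophage markers (Adgre1, Mrc1, C1qa, C1qb, Cd68 and Mertk) summed to 974 CPM in Marco-gated cells, 650.5 CPM in Arg1-gated cells and between 295 and 707 CPM in the Vcan gate, and reached no more than 86.0 CPM in the Camp gate. The 7 dendritic cell markers (Ccr7, Fscn1, Ccl22, Flt3, Zbtb46, H2-Ab1 and Cd74) summed to 5868 CPM in Arg1-gated cells and to between 1964 and 10457 CPM in the Vcan gate, and 6 progenitor markers (Kit, Cd34, Mpo, Elane, Prtn3 and Ctsg) to 18505 CPM in S100a8-gated control cells and 9697 CPM in S100a8-gated heme cells of day 3, so the gates are called by their genes and not by a cell type.

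Ly6g was high in the Camp gate and, from day 4 on, also in the S100a8 gate. In Camp-gated cells it was at 262, 392 and 263 CPM in the control on days 3, 4 and 5, and at 249, 297, 187 and 252 CPM under heme on days 3, 4, 5 and 7. In S100a8-gated cells it was at 20.9, 203 and 174 CPM in the control and at 20.9, 188 and 90.6 CPM under heme on days 3, 4 and 5. In Vcan-gated, Marco-gated and Arg1-gated cells it was at 1.46 to 7.15 CPM. Day 0 cells with 2 or more UMIs of Klf1, an erythroid factor, should lack the gene and had 0 Ly6g UMIs in 26 control cells and 2.45 CPM in 133 heme cells, so the values of the Vcan, Marco and Arg1 gates lay within a few CPM of cells that should lack it. On day 4 the Vcan gate of the control held 0.0119 of the Camp-gate level (0.00632 to 0.0204). Within the Camp gate the heme library was lower on day 4, at 0.757 of the control (0.723 to 0.793), and on day 5, at 0.710 (0.606 to 0.828), and on day 3 it was at 0.952 (0.898 to 1.01). The Camp gate supplied 86.9%, 71.9% and 41.2% of the control Ly6g UMIs on days 3, 4 and 5 and 87.9%, 68.3%, 16.3% and 44.7% of the heme ones on days 3, 4, 5 and 7. Most of the day 5 remainder was in S100a8-gated cells, with 36.2% in the control and 55.8% under heme. On day 7 the S100a8 gate held 56.6% of the control UMIs, and its 102 control cells stood at 276 CPM against 77.3 CPM in 269 heme cells (ratio 0.281, 0.223 to 0.353), the reverse of the whole cultures, in which these cells were 3.98% of the control and 13.4% of the heme culture.

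Ly6c2 was high in the Camp gate and in the Vcan gate alike. Camp-gated cells held 1663, 1988 and 1896 CPM in the control on days 3, 4 and 5, and 1882, 2139.6, 1786 and 2169 CPM under heme on days 3, 4, 5 and 7. Vcan-gated cells held 1177, 1146 and 702 CPM in the control and 1297, 1372, 1141 and 515 CPM under heme on the same days. The Camp-gate level was thus steady and that of the Vcan gate went down with time, later under heme. On day 5 the heme to control ratio was 1.62 in the Vcan gate (1.53 to 1.73) and 0.942 in the Camp gate (0.895 to 0.991), and on day 4 it was 1.20 (1.14 to 1.26) and 1.08 (1.06 to 1.10). The make-up of the Vcan gate of day 5 differed between the libraries, as given below for Ly6a, and its part in the ratio was not tested. Arg1-gated control cells held 478 CPM and Marco-gated heme cells 216 CPM on day 7, a ratio of 0.452 (0.422 to 0.485) of the latter to the former. Cells outside all gates on day 7, of which the control had 2193 and the heme culture 829, were at 148 and 409 CPM (2.77 times, 2.65 to 2.89). Klf1-gated day 0 cells had 70.4 and 53.5 CPM, so even the Marco gate was above them.

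Ly6a was low in the Camp gate and high in Marco-gated cells. It was at 2.44 to 11.6 CPM in every Camp-gated culture and at 25.4 to 26.4 CPM in S100a8-gated cells of day 7. Vcan-gated control cells had 11.2, 14.7 and 20.7 CPM of it on days 3, 4 and 5. Vcan-gated heme cells had 14.2, 79.7, 142 and 186 CPM of it on days 3, 4, 5 and 7. Before the exposure the Vcan gates did not differ beyond counting error (1.27 times, 0.920 to 1.75), and after it the heme gate was 5.43 times higher on day 4 (3.88 to 7.77) and 6.88 times on day 5 (5.05 to 9.58). The make-up of the Vcan gate of day 5 differed between the libraries. Its 8 neutrophil markers were at 4200 CPM in the control and 15426 CPM under heme, and its 7 dendritic cell markers at 10457 and 4612 CPM. Over all single-hashtag cells this gate held 162 control and 502 heme cells, of which the limits left 100 and 128. The part of these differences in the Ly6a ratio was not tested. Marco-gated heme cells of day 7 stood highest, at 424 CPM (411 to 438). The Vcan-gated cells of that culture were at 0.438 of them (0.399 to 0.481), and the Marco-gated cells were at 6.03 times the 70.3 CPM of Arg1-gated control cells (5.25 to 6.96). Gate and library both differ in the latter ratio. Cells outside the gates on day 7 were at 40.7 CPM in the control and 281 CPM under heme (6.91 times, 6.45 to 7.41). The mixture of these ungated cells, which also gave the Ly6c2 values above, differed between the libraries, with the 7 dendritic cell markers at 13382.5 CPM in the control and 4184 CPM under heme and the 8 neutrophil markers at 2366 and 18587 CPM, and its part in the difference was not tested. In the S100a8 gate the ratio was 2.52 on day 3 (1.44 to 4.55), before the exposure, then 1.90 (1.34 to 2.74) for day 4, 1.74 (1.35 to 2.27) for day 5 and 1.04 (0.563 to 2.06) for day 7. In the Camp gate, at a few CPM, it was 4.20 on day 3 (2.55 to 7.33), then 2.38 (1.68 to 3.44) for day 4 and 1.66 (0.717 to 3.63) for day 5. Of the Ly6a UMIs of the heme culture on day 7, 48.0% were in Marco-gated cells, 36.1% outside the gates and 6.54% in Vcan-gated cells.

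Ly6e was lower in the Camp gate than in the Vcan gate. Camp-gated cells held 100.2, 114 and 181 CPM in the control and 141, 244, 284 and 195 CPM under heme, against 825, 874 and 901 CPM and 955, 897, 888 and 806 CPM in Vcan-gated cells of the same cultures. On day 3 the Vcan gate was 8.24 times the Camp gate in the control (7.62 to 8.91) and 6.78 times under heme (6.42 to 7.17). In the Camp gate the heme level was 2.14 times the control on day 4 (2.00 to 2.30), whereas in the Vcan gate it was 1.03 times (0.970 to 1.08). The Camp gates already differed on day 3, before the exposure, at 141 CPM under heme (134 to 148) and 100.2 CPM in the control (93.1 to 108). Marco-gated heme cells held 669 CPM and Arg1-gated control cells 936 CPM. S100a8-gated control cells of day 7, with Ly6g at 276 CPM, held 1040.05 CPM of Ly6e. Klf1-gated cells held 427 and 398 CPM, 67.9% and 66.9% of the level over the whole library.

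Ly6i was spread over all gates. In the Camp gate it was at 9.76, 29.3 and 36.1 CPM in the control and at 29.99, 61.4, 54.0 and 39.2 CPM under heme. In the Vcan gate it was at 17.7, 51.2 and 71.4 CPM in the control and 30.4, 82.6, 86.7 and 19.7 CPM under heme. The higher day 3 level of the heme library was therefore present within gates, at 3.07 times in the Camp gate (2.38 to 4.02), 2.99 times in the S100a8 gate (1.95 to 4.67) and 1.71 times in the Vcan gate (1.35 to 2.18). On day 7 Arg1-gated control cells stood at 134 CPM and Marco-gated heme cells at 30.4 CPM, 0.228 of the former (0.194 to 0.266), and S100a8-gated cells at 131 CPM in the control and 49.2 CPM under heme (0.375, 0.275 to 0.517). Klf1-gated heme cells were at 1.22 CPM.

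**Figure D3:**
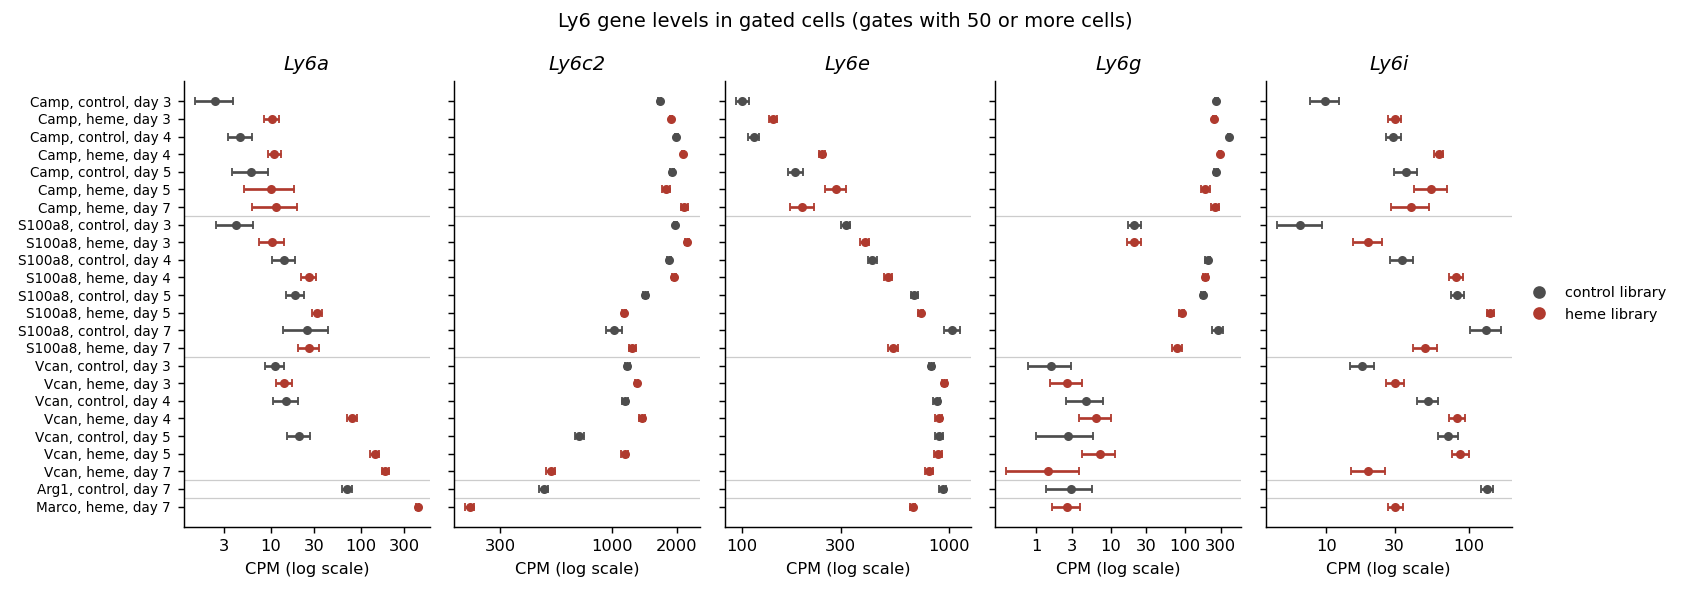
Level of each gene (x axis, CPM on a log scale that differs between panels) in gated cells (y axis: gate, library and day), with 1 culture per point and bars for the 95% counting interval. Ly6g is at 77.3 CPM or more in Camp-gated cells and S100a8-gated cells from day 4 on and at 7.15 CPM or less in the Vcan, Arg1 and Marco gates, whereas Ly6a is highest in the Marco gate at 424 CPM.

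**Figure D4:**
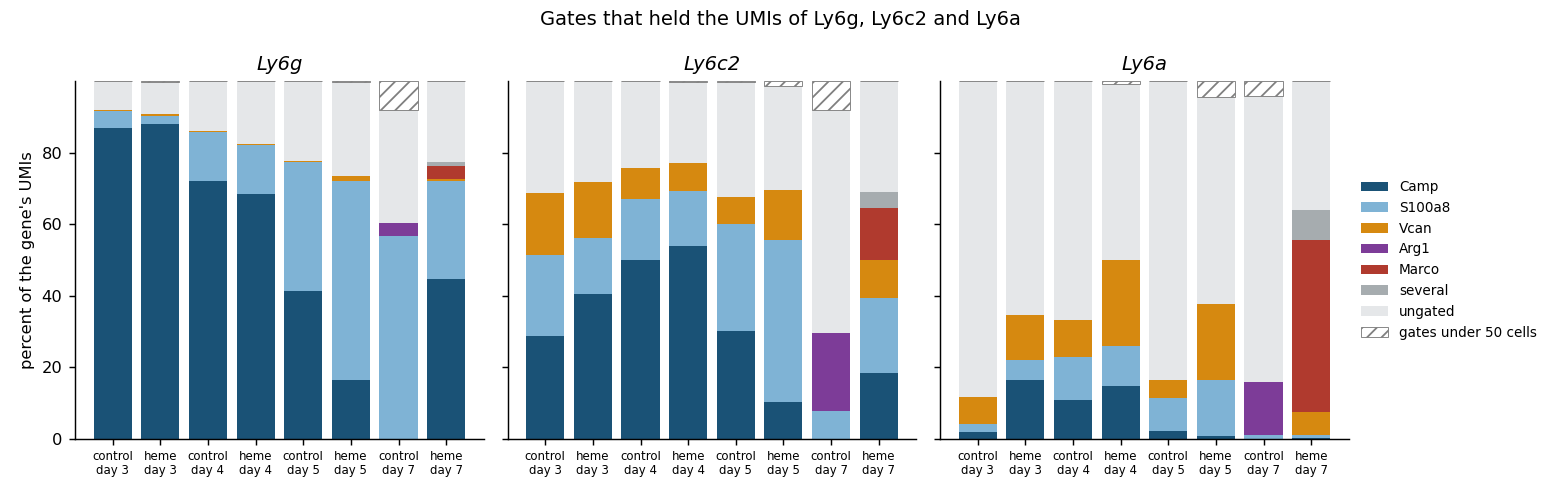
Percent of all UMIs of Ly6g, Ly6c2 and Ly6a (y axis) that lay in each gate, by library and day (x axis), with hatching for gates under 50 cells. Camp-gated cells hold 86.9% of the Ly6g UMIs on control day 3, and Marco-gated cells hold 48.0% of the Ly6a UMIs on heme day 7.

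The Camp share of a cell ordered the genes in a graded way on days 3 to 5. Cells were binned by Camp as a percent of their UMIs, from under 0.01 to 2 or more, and each bin held 455 to 2830 control and 623 to 2017 heme cells. Ly6g went from 17.9 to 80.2, 217, 269, 300.3 and 375 CPM over the 6 bins of the control and from 22.6 to 59.3, 153, 193, 261 and 364 CPM in the heme library, with no plateau. Ly6c2 went from 863 to 1315, 1867, 1902, 1858 and 1818 CPM in the control and from 1061 to 1365, 2032, 2083, 1991 and 1932 CPM under heme, flat once Camp passed 0.1% of UMIs. Ly6e ran the other way, from 779 to 94.7 CPM in the control and from 780.5 to 135 CPM under heme. Ly6a went from 43.2 to 3.61 CPM and from 74.9 to 10.6 CPM. Ly6i fell as well, though less steeply, from 39.0 to 20.8 CPM and from 63.4 to 40.6 CPM, with the heme library higher in 6 of 6 bins. The bins pool 3 days whose cell mixture differs, and the lowest bin has the deepest cells, with medians of 15812 and 13598 UMIs.

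**Figure D5:**
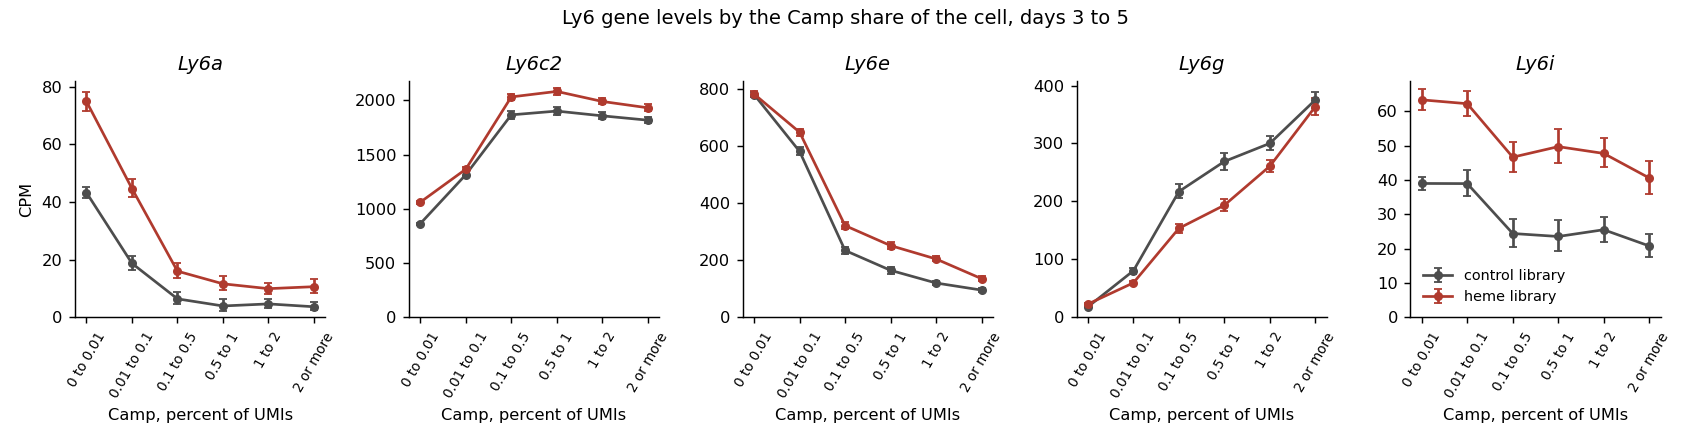
Level of each gene (y axis, CPM) in cells of days 3 to 5 binned by the percent of UMIs that are Camp (x axis), in the control (grey) and heme (red) library, with bars for the 95% counting interval. Ly6g is at 375 and 364 CPM in the top bin, where Ly6a and Ly6e are lowest or next to lowest.

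Counted by cell, a Ly6a UMI was detected in a larger share of heme than of control cells on day 7. Such shares rise with the level itself, so more cells with the gene and more RNA per cell cannot be told apart. After each cell was thinned to 3000 UMIs, which left out 172 control and 112 heme cells of day 7 with fewer, 7.57% of 2391 control cells (6.54 to 8.70, Clopper-Pearson) and 31.1% of 1900 heme cells (29.0 to 33.2) had a Ly6a UMI. Without thinning the shares were 15.0% and 47.0%. In Marco-gated heme cells the thinned share was 48.5%, in Vcan-gated heme cells of day 7 21.2% and in Arg1-gated control cells 11.1%, against 0.758% of 132 Klf1-gated heme cells with a median of 19539 UMIs before thinning. Ly6c2 was in 24.2% of control and 51.0% of heme cells of day 7, and in 88.1% and 90.0% on day 3, against 15.9% of Klf1-gated heme cells. Ly6g was in 1.84% of control and 5.63% of heme cells of day 7 and in 34.8% and 36.1% on day 4, against 2.27% of Klf1-gated heme cells. Ly6i was in 13.2% and 9.95% of cells of day 7.

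Ly6g was next read together with Ly6c2. On day 4 34.3% of control cells had both and 0.501% had Ly6g alone, with 50.1% holding Ly6c2 alone. Under heme the shares were 35.5%, 0.560% and 56.5%. On day 7 1.13% of control cells had both and 0.711% Ly6g alone, against 5.42% and 0.211% of heme cells. In Vcan-gated control cells of day 4, 1.40% had both and 79.0% Ly6c2 alone. Ly6a was also read together with Ly6c2, which a smaller share of heme cells held on day 7 than on day 4. Of the heme cells of day 4, 4.48% had both Ly6a and Ly6c2, 0.947% Ly6a alone and 87.6% Ly6c2 alone. Of the heme cells of day 7, 13.7% had both Ly6a and Ly6c2, 17.3% Ly6a alone and 37.3% Ly6c2 alone. In the same cells 3.63% had Ly6a and Ly6i together and 27.4% Ly6a without Ly6i. These shares describe detected UMIs at 3000 UMIs per cell and understate joint presence.

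The wider family was counted as well. Of 36 genes with a Ly6 or related LU domain, 11 had no UMI in either library and 10 reached 10 CPM in some culture, the 5 members among them. The others were Ly6d, Ly6g5b, Plaur, Cd59a and Cd177. Ly6d, an early B-lineage antigen gene, was a day 0 gene at 259 CPM in the control and 82.2 CPM in the heme library, with 1.75 CPM or less afterwards. Cd177, a neutrophil antigen gene, was at 28.4, 376, 526, 240.5 and 11.3 CPM in the control and at 35.0, 873, 1232, 455 and 154 CPM under heme, a day 7 ratio of 13.6 and a ratio of 2.32 on day 3, before the exposure. Plaur, the urokinase receptor gene, was at 0.826 to 0.928 of the control on days 3 to 7. Cd59a, a complement regulator, and Ly6g5b, of unclear role, did not exceed 13.8 CPM anywhere. Of the 7 non-member genes with 20 or more UMIs on day 7, 3 were 2-fold or more higher under heme and none was lower, beside 14.3% and 7.24% of all genes. Cd177 was among the 3, and the others stood at 1.08 CPM or less in both cultures of that day.

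Ly6a and Ly6e are interferon-inducible, and 24 interferon-induced genes were therefore read beside them. Their summed level was 172, 356, 940.1 and 1633 CPM in the control and 173, 407, 453 and 275 CPM in the heme library on days 3, 4, 5 and 7, and the heme library was thus the lower one from day 5 on. Of 23 with 20 or more UMIs, 3 were 2-fold or more higher and 3 lower on day 4, 0 higher and 15 lower on day 5, and 0 higher and 18 lower on day 7, beside the 14.3% and 7.24% of all genes on that last day. Their median log2 ratio ran 0.23, 0.01, -1.38 and -2.36 over days 3, 4, 5 and 7. Isg15, a ubiquitin-like interferon effector, was at 36.2 CPM in the control and 5.86 CPM in the heme culture of day 7 (0.162). Irf7, a transcription factor of the response, was at 10.8 and 3.78 CPM (0.352), and Ifit3, an antiviral effector, at 2.23 and 0.297 CPM (0.133). On the same day Ly6e was at 0.855 and Ly6a at 6.62 times the control, so Ly6a ran against the list.

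For each member, the genes whose course over the 10 cultures was most alike were taken by Pearson's r of log2(CPM + 1), among 7914 genes with a mean of 10 CPM or more. The cultures share 2 libraries, and the r values are descriptions. Ly6g was followed by Pglyrp1 (r = 0.988), a peptidoglycan-binding granule protein of neutrophils, and by Lcn2 (0.986), lipocalin 2. Pglyrp1 stood at 2979.8 CPM in the control and 2769.5 CPM in the heme culture of day 4 and at 91.9 and 357 CPM on day 7. Ly6c2 was nearest to Serpinb1a (0.984), an inhibitor of neutrophil proteases, Cldn15 (0.972), a claudin, and Ccnd3 (0.964), cyclin D3. Serpinb1a went from 625 to 17.9 CPM between days 3 and 7 in the control library and from 522 to 101 CPM in the heme library.

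Ly6a was nearest to Snapc1 (0.966), a subunit of a small nuclear RNA transcription complex, Lmna (0.926), lamin A/C, and Cenpb (0.911), a centromere protein. Snapc1 moved far less than Ly6a, between 11.1 and 19.3 CPM, whereas Lmna stood at 31.7 CPM in the control and 187 CPM in the heme culture of day 7. Ly6e was nearest to Orai3 (0.975), a calcium channel subunit, Ifi209 (0.971), of the interferon-inducible Ifi200 family, and Nav1 (0.963). Ly6i was nearest to Cmtm6, Nfkb2, an NF-kappaB subunit, and Cd80, a costimulatory ligand, each at r = 0.980. Nfkb2 and Cd80 were lower under heme on day 7, at 43.9 against 25.9 CPM and at 33.2 against 17.6 CPM.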

How the data were processed

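The deposited files hold raw UMI counts per gene and barcode, which the authors made with Cell Ranger (4.0.0 in the methods and processing notes, 5.0.0 in the matrix header) on GRCm38.p6, with empty droplets removed, and hashtag calls per barcode. The annotation release is not given in the sources used here. No normalized values were used, and the hashtag classifications served to assign the day and to drop doublets across days; doublets within a day remain, and no doublet caller was run.

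Cells with a single hashtag, 500 to 5000 genes, under 15% mitochondrial and under 30% ribosomal protein (Rps and Rpl) UMIs were kept, after the limits of the study's methods, and summed by library and day to 2249779 to 32835088 UMIs. Levels are CPM, UMIs scaled to total gene UMIs, with exact Poisson, Poisson-ratio or Clopper-Pearson 95% intervals, which cover counting error only. Each group was 1 library, so no test was run. Where a culture had 0 UMIs, a floor of 3 counts applied. A gene was called at 2-fold among genes with 20 or more UMIs. The counting code was tested on simulated data. Gates, thinning to 3000 UMIs (seed 1) and likeness are described with their results. TMM (edgeR 4.0.16) and DESeq2 1.42.0 size factors, other cell limits, totals, gates and thinning depths were alternatives. Tools were Python 3.11.15, numpy 2.4.6, scipy 1.17.1, pandas 2.3.3, Biopython 1.88 and R 4.3.3.

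The members, gates and gene lists were chosen with earlier results of these data known. Named genes are the members, family genes that reached 10 CPM, 3 genes of the interferon list, the genes among the 3 most like each member, and gate and marker genes. Some genes that these rules include are not reported here, and the summed lists were computed without them. Gene positions and transcripts came from GENCODE M21, in which 26013 of 26124 identifiers were found, and promoter windows from RefSeq, with 2 of 5 members matched.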

Additional observations from a re-analysis of the deposited data

Results flagged for a closer look

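Among days 4, 5 and 7, Ly6g and Ly6i changed sides. Ly6g was lower in the heme than in the control library on day 5, at 0.787 of the control (0.425 over all single-hashtag cells and 0.421 with no upper gene limit), and higher on day 7, at 3.09 times the control. Ly6i was higher in the heme library on day 4, at 1.90 times, and on day 5, at 1.54 times (1.12 over all single-hashtag cells and 1.11 with no upper gene limit). On day 7 it was lower, at 0.550 of the control. Each value compares 1 culture with 1 culture, and the difference between days was not tested.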

How the results depend on the processing

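Of 594 values under alternatives, 271 stayed close to the main value, 310 moved further and 13 ratios whose interval excluded 1 changed sides of it. Close meant within the counting interval, or within a set fold for the counts of members and the percents of all genes. Other ratios that crossed 1, Ly6g on day 4 among them, had an interval that included it. The 13 were for Ly6c2 0.908 (TMM) and 0.949 (DESeq2) on day 3 and 0.999 (TMM) on day 5; for Ly6e 0.820, 0.856 and 0.989 on day 3 (TMM, DESeq2, total without ribosomal and mitochondrial UMIs), 1.02 and 1.03 on day 4 (all single-hashtag cells, no upper gene limit) and 1.02 on day 5 (mean over cells); for Ly6g 0.784 and 0.776 on day 3 (all single-hashtag cells, no upper gene limit); and for Ly6i 0.856 and 0.692 on days 4 and 5 (divided by the day 3 ratio). The causes were not tested. On day 7 each member kept its direction in all 8 alternatives. Under TMM, DESeq2, all single-hashtag cells, mean over cells and division by the day 3 ratio, in this order, Ly6a was at 5.56, 5.60, 7.13, 5.97 and 9.34, Ly6c2 at 2.03, 2.04, 2.11, 2.28 and 2.11, Ly6e at 0.719, 0.724, 0.881, 0.820 and 0.830, Ly6g at 2.60, 2.62, 2.10, 1.66 and 2.33, and Ly6i at 0.462, 0.466, 0.476, 0.478 and 0.247. Without ribosomal and mitochondrial UMIs in the total, Ly6a was at 6.20, Ly6c2 at 2.26 and Ly6e at 0.801. With no ribosomal limit Ly6a was at 7.18, Ly6c2 at 2.60, Ly6e at 0.924 and Ly6i at 0.595, and with no upper gene limit Ly6c2 was at 1.99, Ly6e at 0.829, Ly6g at 2.04 and Ly6i at 0.447. The count of members 2-fold or more higher was 0 on days 4 and 5 under TMM and DESeq2, which lower Ly6a on those days, and 2 in place of 3 on day 7 as a mean over cells and with no upper gene limit. The count 2-fold or more lower was 1 on day 5 (Ly6g) over all single-hashtag cells and with no upper gene limit, and 1 on day 7 (Ly6i) under TMM, DESeq2, all single-hashtag cells, no upper gene limit, mean over cells and division by the day 3 ratio. Gate thresholds divided by 2 gave 4.67 for Ly6a in the Vcan gate of day 5, and 80.5% and 78.4% for the Camp-gate share of Ly6g UMIs on day 4 in the control and heme library. Thresholds multiplied by 2 gave 57.7% and 50.4%, and all single-hashtag cells 66.9% in the heme library. Cells of day 7 with Ly6a were 11.3% and 42.5% at 6000 UMIs, 15.0% and 47.0% without thinning, and 2.17% and 18.9% from 2 UMIs. The Vcan gates of days 4 and 5 gave no ratio with thresholds multiplied by 2 or set relative to each cell's UMIs, for want of 50 cells. No paired analysis was possible because each group is 1 library. Depth limits Ly6g and Ly6i on day 0, and Ly6g in the Vcan, Marco and Arg1 gates, where few UMIs were counted.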

Other observations

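In the heme culture of day 7, 105 cells met more than 1 gate and entered none of the gate values above. They held 337 CPM of Ly6a, 313 CPM of Ly6c2, 678 CPM of Ly6e, 3.05 CPM of Ly6g and 28.5 CPM of Ly6i, and 8.48% of the Ly6a UMIs of that culture. Their 6 macrophage markers summed to 974 CPM and their 8 neutrophil markers to 5223 CPM, beside 974 and 3309 CPM in Marco-gated cells.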
